A study of Mus musculus with 4 samples.

Results

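NG14 is the largest of the 18 neuron types that the authors' deposited annotation distinguishes in the mouse nodose ganglion, and galanin is the peptide it was singled out for. Its members were the cells carrying the cluster name NG14: 259 of 1459 nodose neurons, in a table of 1825 cells from the vagal ganglion complex. The comparison was with the 1200 neurons of the other 17 nodose types of the same libraries. All mice were 5 weeks old. For 2 libraries, called unsorted 1 and 2, all dissociated cells of wild-type C57BL6 animals were used. The other 2, called sorted 1 and 2, came from Vglut2Cre-Tomato mice, a cross of Slc17a6tm2(cre)Lowl with the reporter allele Gt(ROSA)26Sortm14(CAG-tdTomato)Hze on a B6.Cg background, whose red cells were collected by fluorescence-activated cell sorting. In these mice Cre is made from the locus of Slc17a6, the vesicular glutamate transporter gene VGLUT2, and leaves tdTomato on in every cell that has used that locus. Genotype, sorting and library batch change together between the 2 pairs of libraries and cannot be told apart. The number of animals per library is not given in the sources used here, so every p-value rests on spread between libraries, which may be partly technical. Where types are compared within libraries, it is the spread of their difference. For sorted against unsorted NG14 neurons it is the spread of the levels.

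The nodose ganglion holds the cell bodies of placode-derived vagal sensory neurons, which carry signals from the heart, lungs and gut to the brainstem. Besides glutamate, many of them make peptides that are stored in dense-core vesicles and act on receptors coupled to G proteins. Galanin, encoded by Gal, mostly acts on receptors that inhibit neurons. PACAP, encoded by Adcyap1, acts on receptors that raise cyclic AMP. Both peptides are known to increase in sensory neurons after nerve injury.

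Values are unique molecular identifiers (UMIs, each 1 captured transcript) per 10000 UMIs of a cell, averaged over the cells of a type in a library, with the library as the replicate. The 4 libraries held 16147719 to 30778125 UMIs. NG14 neurons had a median of 60019, 28996, 51908 and 50832 UMIs in unsorted 1, unsorted 2, sorted 1 and sorted 2, the order used throughout. Other nodose neurons had 71156, 35978, 53905 and 58812, so NG14 neurons were the shallower group in every library. Mitochondrial transcripts took a median of 10.1%, 9.12%, 6.65% and 8.49% of the UMIs of NG14 neurons, against 7.5%, 7.29%, 6.88% and 8.19% in the others. Markers of nodose neurons were not all alike in NG14: Htr3a was called lower, 0.775 against 6.46, while P2rx2, at 7.11 against 4.22, and Slc17a6, at 2.83 against 2.64, were not called. The 6 markers together summed to 21.2 to 23.0 per 10000 in NG14 and 24.8 to 26.6 in the others. The 6 markers of jugular neurons summed to 0.553 to 1.04, with 3 of them under 0.1. The 2 immune markers in the table summed to at most 0.0125, and fibroblast and red blood cell markers reached at most 0.167 and 0.287. The 5 Schwann cell markers summed to 3.55 to 4.22, beside 3.52 to 4.22 in the others, and the 6 sympathetic markers to 1.17 to 1.47. The 6 endothelial markers, 5 of them under 0.1, summed to 1.08, 1.03, 0.648 and 0.627. In each library this was above the others, which had 1.05, 0.720, 0.441 and 0.286. Satellite glia markers differed most between libraries: their sum was 30.7 and 36.3 in NG14 neurons of the unsorted libraries and 1.66 and 1.36 in those of the sorted ones.

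NG14 took up a similar share of the nodose neurons in the 4 libraries. There were 29 NG14 neurons among 188 in unsorted 1 (15.4%, exact Clopper-Pearson 95% interval 10.6 to 21.4) and 122 among 725 in unsorted 2 (16.8%, 14.2 to 19.8). Sorted 1 held 62 among 299 (20.7%, 16.3 to 25.8) and sorted 2 held 46 among 247 (18.6%, 13.97 to 24.05). Over all libraries the share was 17.8% (15.8 to 19.8), and the next largest type, NG16, had 156 cells. Both sorted shares were above both unsorted ones, but the 4 intervals, which cover counting error only, all overlapped. An exact permutation test of 2 libraries against 2 cannot go under 0.333, so none was made.

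The 2 marker genes lie on chromosome 19 (Gal, minus strand, chr19:3409915-3414544) and chromosome 17 (Adcyap1, plus strand, chr17:93199017-93206537) of GRCm38, both protein-coding. Their promoters are shown because both genes were called higher in NG14, and because cyclic AMP, the messenger of PACAP receptors, acts on genes through the element TGACGTCA, whose core is TGACG. The RefSeq promoter table (GRCm38.p6) held both genes. Each run gives 250 bases before and 30 bases from the annotated transcription start, with the core in capitals, for chr19:3414515-3414794 (minus strand) and chr17:93198767-93199046 (plus strand):
Gal: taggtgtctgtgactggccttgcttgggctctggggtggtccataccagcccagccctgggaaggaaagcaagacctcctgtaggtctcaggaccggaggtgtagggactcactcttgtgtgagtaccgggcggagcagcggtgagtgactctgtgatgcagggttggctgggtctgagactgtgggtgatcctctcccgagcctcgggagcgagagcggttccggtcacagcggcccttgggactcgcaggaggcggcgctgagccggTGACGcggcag
Adcyap1: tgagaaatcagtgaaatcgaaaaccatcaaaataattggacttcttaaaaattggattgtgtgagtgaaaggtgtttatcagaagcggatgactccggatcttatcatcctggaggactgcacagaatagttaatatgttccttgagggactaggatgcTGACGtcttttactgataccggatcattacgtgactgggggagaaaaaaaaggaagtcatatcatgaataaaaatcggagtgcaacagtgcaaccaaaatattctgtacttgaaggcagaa
Searched on both strands in the table's full windows, which run to 50 bases after the start, each gene had 1 core. In Gal it began 19 bases after the annotated start, and in Adcyap1 at position -91. A later Adcyap1 start, at 93199168, is also annotated, and from it the same core lies at -242. None of these windows held the full TGACGTCA, which contains the core, nor TGANTCA or TAATTA. Among 32851 windows of the same length, 20.8% held TGACG and 1.79% held TGACGTCA, while TGANTCA stood in 7.81% and TAATTA in 5.29%. A core at this frequency is a description of the letters, not of a binding site.

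Adcyap1 was high in NG14 in every library. Its level was 2.63, 2.18, 3.76 and 3.81 per 10000 in NG14 neurons and 0.476, 0.433, 0.765 and 0.829 in other nodose neurons. The lowest NG14 value was thus above the highest value of the others, and the log2 difference was 1.32 (SE 0.05, on the log2(value + 1) scale used for all differences, which understates those of low genes). NG14 had the highest Adcyap1 of the 18 types over the libraries (3.09 ± 0.815, SD, n = 4 libraries). NG16 followed at 1.36 ± 0.287 and NG11 at 1.17 ± 0.288, whose libraries overlapped with each other but not with those of NG14. In each library NG14 ranked first among the types with at least 10 cells.

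Gal had another pattern: it was high in NG14 neurons of the sorted libraries and low in those of the unsorted ones. Levels in NG14 were 1.20, 1.61, 8.76 and 6.75 per 10000, against 0.528, 0.373, 0.967 and 1.06 in other nodose neurons. NG14 was above the others in 4 of 4 libraries, with a log2 difference of 1.42 (SE 0.20), but the size went from 0.73 in the unsorted libraries alone, under the fold of a call, to 2.11 in the sorted ones alone. The call was also lost when the library was left out of the model. NG14 was not the highest type for Gal. NG7, with 57 cells but 7 in unsorted 1, stood at 6.22 ± 2.24 and NG14 at 4.58 ± 3.76 (SD, n = 4 libraries), and their libraries overlapped. NG7 was at 3.26, 6.35, 8.71 and 6.54, so in unsorted 2 it was well above the 1.61 of NG14, and in both sorted libraries the 2 types were nearly level. In unsorted 1 the first type with 10 cells was NG12 at 3.38, a value that stood alone, since NG12 had 0, 0.203 and 0.404 in the other libraries. After these 2 types came NG11 at 1.54 ± 1.16, and 12 of the 18 types were below 0.5.

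**Figure D1:**
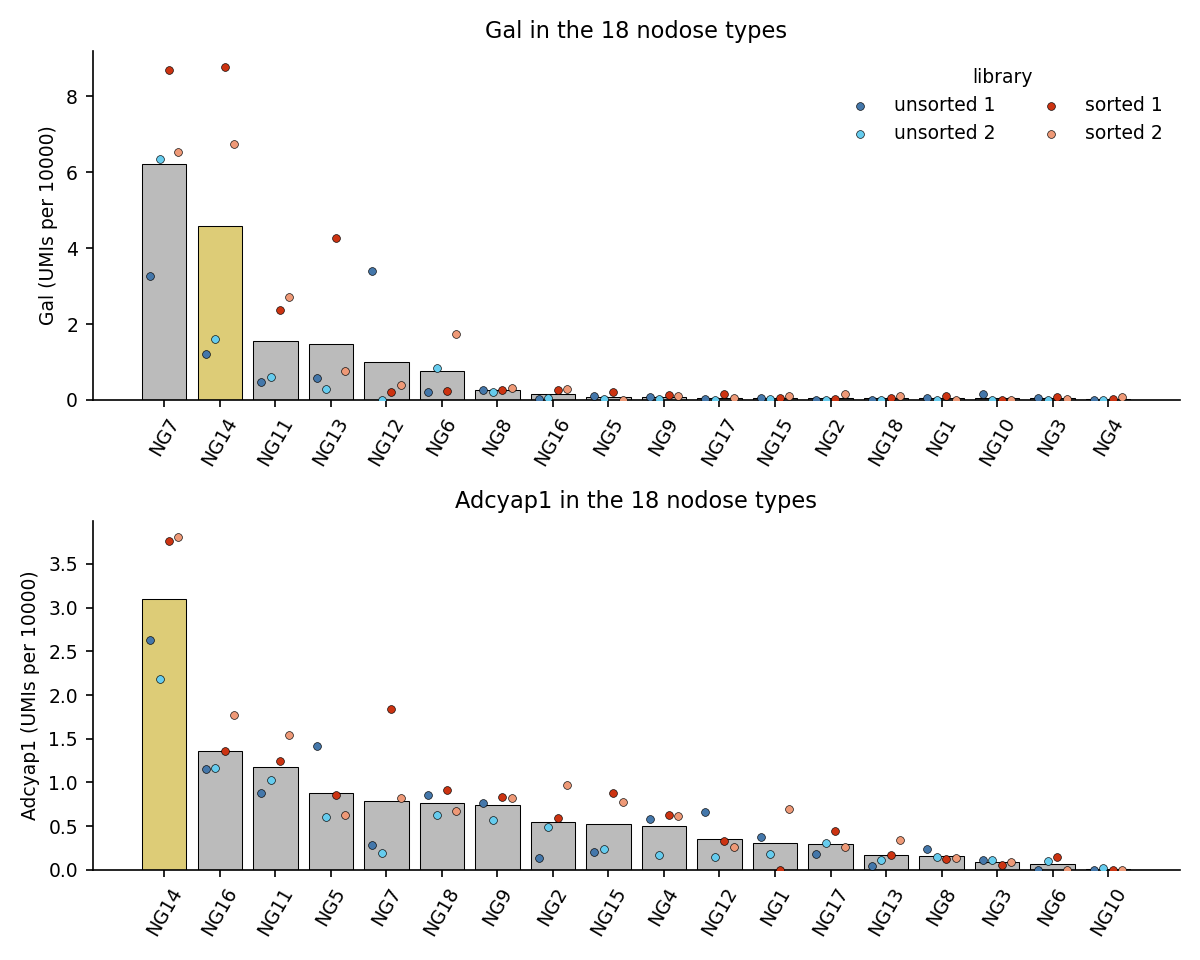
Level of Gal (top) and Adcyap1 (bottom) in the 18 nodose types, in UMIs per 10000, with no minimum of cells per point. Bars are the mean over 4 libraries, points the libraries, and NG14 is the yellow bar; its Adcyap1 points (2.18 to 3.81) lie above those of all other types, while its Gal points split into 1.20 and 1.61 in the unsorted and 8.76 and 6.75 in the sorted libraries.

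The share of cells with a transcript differed between the 2 genes in the same way. A Gal UMI was found in 71.4% of NG14 neurons (185 of 259, 95% interval 65.5 to 76.8). The share was 32.1% in the other nodose neurons, and 3.92% in the 51 endothelial cells, a class that should lack it. All endothelial cells were in unsorted 1 (5.88%) and unsorted 2 (2.94%), where the NG14 shares were 75.9% and 57.4%. Median depths were 35708, 42311.5 and 9677 UMIs. After every cell was thinned to 10000 UMIs, which left out 2 NG14 and 16 other nodose neurons, Gal was found in 55.3% of NG14 and 13.8% of other nodose neurons. By library the thinned share in NG14 was 44.8%, 40.0%, 71.0% and 80.4%. An Adcyap1 UMI was found in 97.7% of NG14 neurons, 64.3% of the others and 1.96% of endothelial cells, and in 86.8% and 35.6% of the neurons after thinning. For Adcyap1 the thinned NG14 shares, which were near their ceiling, were 89.7%, 82.5%, 90.3% and 91.3%. Of 257 thinned NG14 neurons, 130 had a UMI of both genes, 93 of Adcyap1 alone, 12 of Gal alone and 22 of neither. Gal was uneven among cells: the median NG14 neuron of sorted 1 had 3.74 per 10000 and the highest 77.4, and in unsorted 1 these were 0.361 and 7.78.

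Across the transcriptome, NG14 was set apart from the other nodose types by more low genes than high ones. Of 8762 genes above the expression filter, 34 were called (limma adjusted p under 0.05 and an absolute log2 difference of at least 1), which is 0.388% of those tested: 11 were higher and 23 lower in NG14. The 34 kept their direction in 4 of 4 libraries and their NG14 levels did not overlap with those of the others. A call favours such genes, and the share of all 8762 genes that did the same is not given here. The authors drew the cluster from these same transcripts, so the calls say how large and how even a difference was and are no test of the type. Regardless of fold, 2956 genes (33.7%) passed the adjusted p of 0.05, and the median difference of all genes was -0.01. Against NG16, NG8 and NG7 taken singly, the split of called genes went the other way. It was 19 higher and 15 lower in NG14, 34 and 28, and 33 and 19.

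The other genes that were higher in NG14 are as follows. Itm2a, a membrane protein gene, was at 2.997, 3.04, 3.70 and 4.73 per 10000 against 0.674, 0.504, 1.17 and 1.19 (1.30, SE 0.05). Endothelial cells had more of it than NG14, at 17.7 in unsorted 1 and 6.85 in unsorted 2. Ly6h, of a family of GPI-anchored proteins, some of which bind nicotinic receptors, was at 2.44 ± 0.579 against 0.478 ± 0.0642 (1.20, SE 0.07). C1ql3 and C1ql2, secreted synaptic organizers of the C1q-like family, were both high, at 2.68 ± 0.550 against 0.605 ± 0.0951 (1.19) and 1.68 ± 0.355 against 0.287 ± 0.0848 (1.05). Gpx3, a secreted glutathione peroxidase, was at 1.86, 1.999, 4.89 and 4.44 against 0.694, 0.598, 1.02 and 0.908 (1.18, SE 0.10). Its NG14 level was higher in both sorted libraries, as for Gal, Adcyap1, Itm2a, Ly6h, Stmn1, Rab3b and Fxyd6. In the unsorted libraries alone Gpx3 (0.83) was under the fold of a call. Stmn1, which encodes the tubulin-binding protein stathmin, was at 13.7 ± 3.96 against 5.87 ± 1.27 (1.07). Fxyd6, a regulator of the sodium pump, was at 8.55 ± 1.45 against 3.68 ± 0.721 (1.03), and Ahi1, a protein of the primary cilium, at 4.34 ± 1.29 against 1.64 ± 0.457 (1.002). NG14 was the highest of the 18 types for Gpx3, Stmn1, Fxyd6 and Ahi1, as for Adcyap1, second for C1ql3 and Rab3b, the third highest for Itm2a and C1ql2 and the fourth for Ly6h. Among the types above it, NG6 (Rab3b) and NG5 (Itm2a) had as few as 2 cells in a library. Without sorted 1, C1ql2 (0.99) and Fxyd6 (0.99) fell just under the fold of a call.

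The largest difference of all was in Htr3a, the subunit of the serotonin-gated channel. It was at 0.471, 0.798, 1.01 and 0.817 per 10000 in NG14 and 5.73, 6.45, 7.44 and 6.21 in the others (-2.08, SE 0.05). Lypd1, another GPI-anchored protein of the Ly6 family, was at 0.732, 1.32, 0.743 and 0.618 against 6.26, 4.93, 4.63 and 6.94 (-1.85, SE 0.11). Dcdc2a, a doublecortin-family gene, followed with 0.0901 ± 0.0484 against 2.70 ± 1.09 (-1.72) and Pkib, an inhibitor of protein kinase A, with 0.102 ± 0.0410 against 1.99 ± 0.547 (-1.42). Cd9, a tetraspanin, was at 0.687 ± 0.181 against 3.19 ± 1.54 (-1.25), Ifi27l2a, an interferon-inducible gene, at 0.232 ± 0.0530 against 1.74 ± 0.289 (-1.15) and Parm1 at 0.681 ± 0.135 against 2.71 ± 0.513 (-1.14). NG14 was not alone in this. For Htr3a it ranked 14 of the 18 types from high to low. The level of Htr3a was below 0.5 in 4 types and highest in NG17, at 18.01. Against NG16, NG8 and NG7 taken singly, 0 of the serotonin receptors tested were called. Lypd1 was below 0.5 in 7 of the 18 types and Dcdc2a in 11, while the highest types were NG11 with 30.9 for Lypd1 and NG17 with 8.97 for Dcdc2a. For 6 genes NG14 was the lowest of all 18 types: Syt1, Cplx1, Nefh, Nrn1, Parm1 and Rab15.

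**Figure D2:**
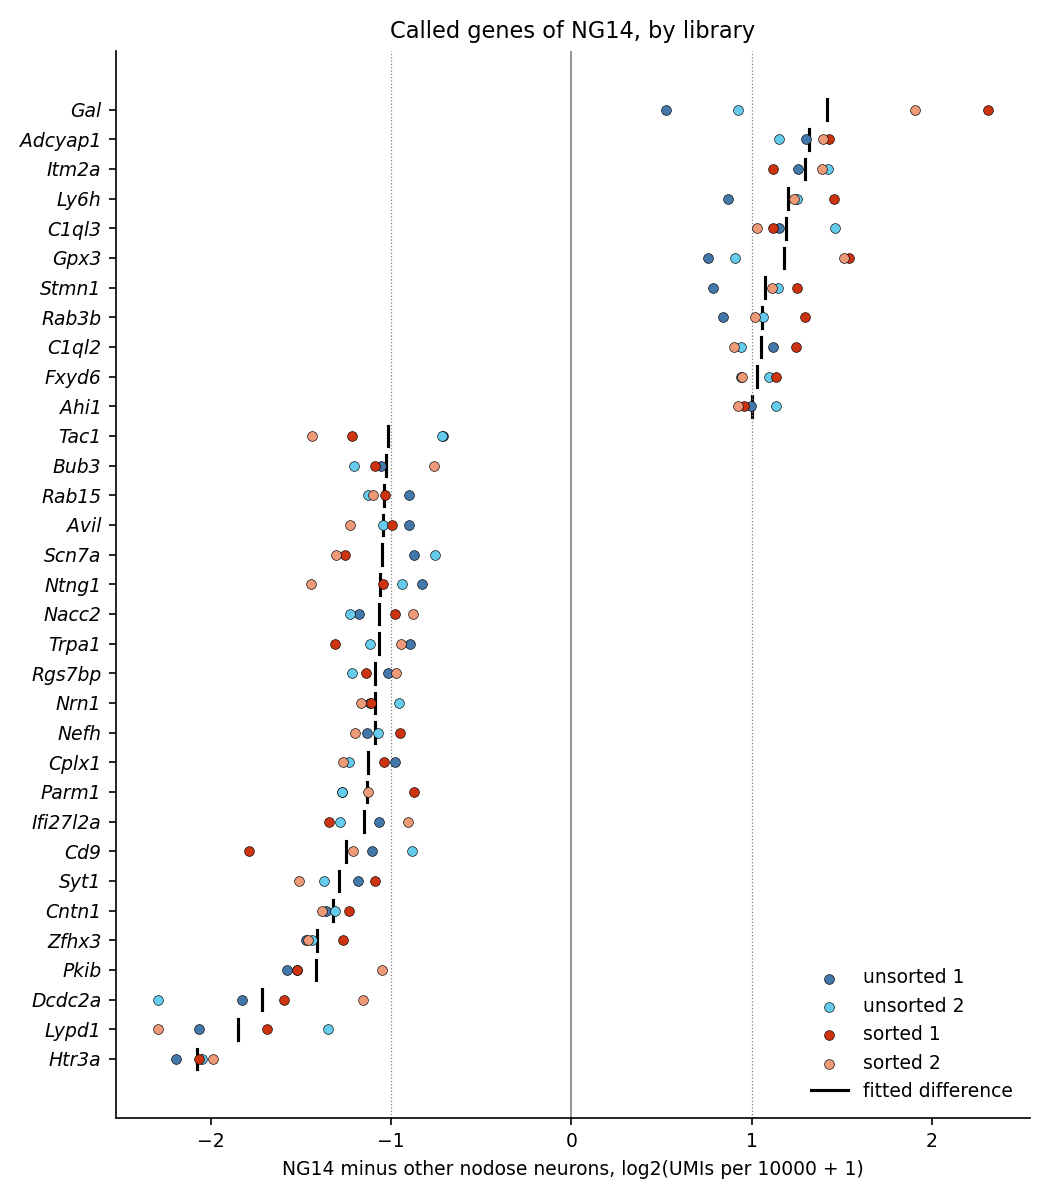
Difference between NG14 and other nodose neurons for 33 of the called genes, on the log2(UMIs per 10000 + 1) scale. Points are the 4 libraries, black ticks the fitted difference and dotted lines the fold of a call. The 4 points of every gene lie on 1 side of 0. Among the 11 higher genes, both sorted libraries exceeded both unsorted ones for Gal, Gpx3 and, by less, Adcyap1.

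**Figure D3:**
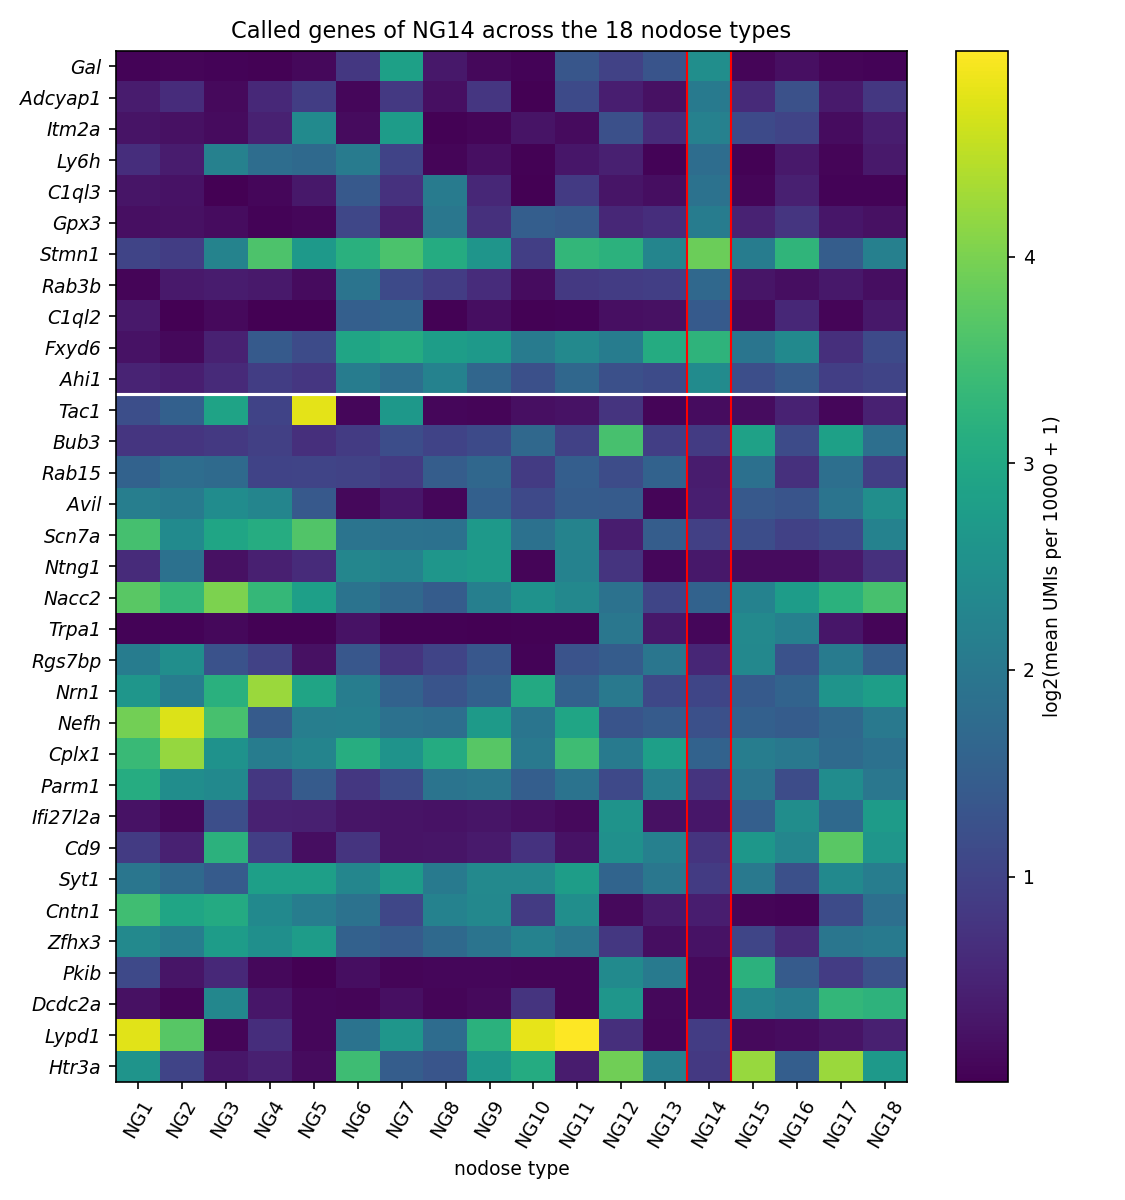
Mean level over 4 libraries of 33 of the called genes in the 18 nodose types, as log2(UMIs per 10000 + 1), ordered by the difference; the white line parts the 11 higher from the 22 lower genes shown and red lines mark NG14. All cells of a type were used, without a minimum per library. Several high genes were shared with NG7 (Gal, Itm2a) or NG8 (C1ql3, Gpx3), and Trpa1 was below 0.5 in 15 of the 18 types.

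Gene lists by function placed these differences. Of 26 peptide genes, 24 were in the table and 16 passed the filter: 2 were called higher (Gal and Adcyap1), 1 lower (Tac1, the substance P precursor, 0.119 ± 0.0453 against 1.33 ± 0.592, -1.02) and 13 were not called. The Tac1 difference was under the fold without sorted 1 (-0.96) or sorted 2 (-0.88). Low Tac1 was not particular to NG14, which ranked 13 of the 18 types from high to low. It was below 0.5 in 11 types, with NG8 at 0.065. Over all genes, 0.388% were called and 33.7% passed the adjusted p at any fold. Of the peptide genes, 5 were higher and 6 lower at any fold at an adjusted p under 0.05, and the list median was -0.05. Among those not called, Grp, gastrin-releasing peptide, was at 0.907 ± 0.583 against 0.0657 ± 0.0260 (0.79), and Vip, vasoactive intestinal peptide, at 0.421 ± 0.286 against 1.68 ± 0.697 (-0.90). Cartpt, the CART peptide gene, was at 3.997 ± 4.84 against 4.12 ± 1.32, with libraries that overlapped. The receptors of galanin and PACAP themselves were nearly undetected: of 6 genes, 4 were in the table and 0 passed the filter of 0.1 per 10000.

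Genes of peptide processing and vesicle release split in both directions. Of 20 tested, Rab3b, a small GTPase of secretory vesicles, was called higher (1.72, 1.99, 2.65 and 2.52 against 0.514, 0.432, 0.489 and 0.738; 1.05, SE 0.06), although without sorted 1 it was at 0.98, and 2 were called lower. Syt1, the calcium sensor of fast release, was at 0.897, 1.09, 0.745 and 0.561 against 3.31, 4.42, 2.71 and 3.46 (-1.29, SE 0.06). Cplx1, complexin 1, which binds the release complex, was at 1.99 ± 0.356 against 5.56 ± 0.826 (-1.13). The other 17 were not called, among them the prohormone convertases Pcsk1 (0.35) and Pcsk2 (-0.74). Over all genes 0.388% were called. Slc17a6 was not called: its level was 2.92, 3.37, 2.53 and 2.52 against 2.43, 2.98, 2.39 and 2.75 (0.07, SE 0.05), with overlapping libraries. The transmitter list had 0 called of 4 tested.

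In the 5 lists of TRP, sodium, potassium, calcium and mechanosensitive channels 2 genes were called, both lower, beside the 0.388% called over all genes. Of 6 TRP channels tested, Trpa1, a receptor of irritants, was called lower (0.0643 ± 0.0102 against 1.24 ± 0.288, -1.07), while Trpv1, the capsaicin receptor, was at 1.55 ± 0.124 against 0.957 ± 0.193 and not called (0.38). Of 11 sodium channel genes, Scn7a was called lower (0.945 ± 0.209 against 3.03 ± 0.428, -1.05). Both were close to the fold: without sorted 1 Trpa1 was at -0.98 and Scn7a at -0.98, and without sorted 2 Scn7a was at -0.96. None of 27 potassium and HCN channel genes, 11 calcium channel genes or 10 mechanosensitive and acid-sensing channel genes was called. At any fold 7 potassium and HCN channel genes were higher and 17 lower, against 33.7% of all genes changed in either direction, with a median of -0.21; the M-current subunit Kcnq3 was the one with the highest NG14 level (2.88 ± 0.491 against 1.43 ± 0.134, 0.67). Cacna1b, the N-type calcium channel, was at 2.14 ± 0.496 against 1.94 ± 0.298 (0.08). Tmc3, of the transmembrane channel-like family, was at 2.61 ± 0.670 against 1.60 ± 1.06 (0.55).

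Among receptors, Htr3a was called lower, as 1 of 2 serotonin receptors tested, while 0.388% of all genes were called. P2rx2, the ATP-gated channel that marks nodose neurons, was higher without reaching the fold of a call, at 6.14, 5.44, 8.40 and 8.45 against 3.82, 2.97, 5.18 and 4.89 (0.64, SE 0.05). Also under that fold were Cckar, the cholecystokinin receptor (3.73 ± 1.84 against 2.49 ± 1.73, 0.49), the nicotinic subunits Chrna3 (2.503 ± 0.205 against 1.47 ± 0.193, 0.51) and Chrnb4 (0.76), and the NMDA receptor subunit Grin3a (1.34 ± 0.356 against 0.321 ± 0.0614, 0.82). Agtr1a, the angiotensin II receptor, was at 0.478 ± 0.147 against 0.0585 ± 0.00756 (0.48). Ngfr, the p75 neurotrophin receptor, was at 5.78 ± 0.219 against 10.8 ± 0.866 (-0.79), Ret at 1.15 ± 0.302 against 2.87 ± 0.256 (-0.86) and the cannabinoid receptor gene Cnr1 at 0.495 ± 0.0958 against 1.15 ± 0.124 (-0.52). F2r, the thrombin receptor, had overlapping levels of 2.84 ± 0.304 and 2.86 ± 0.393. The lists of purinergic (7), gut hormone (6), inflammatory mediator (12), neurotrophic factor (9), acetylcholine (4), glutamate (8) and opioid and cannabinoid (2) receptors had 0 called, counting genes tested in brackets.

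Of 10 tested genes of neurofilaments and large fibres, Nefh, the heavy neurofilament subunit, was called lower (1.48, 1.64, 1.18 and 1.05 against 4.45, 4.57, 3.22 and 3.73; -1.09, SE 0.05). At any fold 7 were lower and 1 higher, against 33.7% of all genes in either direction. The list median was -0.50 against -0.01 for all genes, of which 0.388% were called. The light and medium subunits Nefl (11.2 ± 1.45 against 20.0 ± 1.03, -0.79) and Nefm (4.41 ± 0.426 against 8.09 ± 0.885, -0.75) were not called, and Prph, peripherin, overlapped (23.3 ± 5.76 and 24.0 ± 4.79). Of 26 transcription factors 1 was called, Zfhx3, a zinc finger and homeobox factor, at 0.182 ± 0.0785 against 2.15 ± 0.331 (-1.41). Isl1, a LIM-homeobox factor, was just under the fold at 1.001 ± 0.0831 against 2.86 ± 0.146 (-0.95).

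Among 25 cyclic AMP signalling genes the only call was Pkib, while 0.388% of all genes were called. At any fold 10 were lower and 4 higher, against 33.7% of all genes in either direction. Prkar2b, a regulatory subunit of protein kinase A, was at 0.220 ± 0.0355 against 1.07 ± 0.150 (-0.76). Of 26 calcium-binding and calcium-signalling genes 0 were called, with 7 higher and 9 lower at any fold. Of 35 adhesion and guidance genes 2 were called, both lower: Cntn1, contactin 1, at 0.239, 0.267, 0.416 and 0.342 against 2.18, 2.14, 2.34 and 2.51 (-1.32, SE 0.04), and Ntng1, netrin G1, at 0.257 ± 0.158 against 1.63 ± 0.324 (-1.06; -0.94 without sorted 2). From high to low NG14 ranked 14 of the 18 types for Cntn1 and 13 for Ntng1. NG16 was lower for both, at 0.039 and 0.106. Of 20 genes of the response to tissue dissociation 0 were called, with 8 higher and 3 lower at any fold. Hspa8, a constitutive heat-shock protein, had overlapping levels of 23.0 ± 8.55 and 26.0 ± 6.11. The list's part in the other differences was not tested.

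The types most like NG14 were found from the correlation of mean log2 levels over the 8762 genes, a description across genes, which share libraries and depth and are not independent replicates. They were NG16 (r = 0.967), NG8 (0.961) and NG7 (0.951). Against NG16, 34 of 8573 genes were called (0.397%), 19 higher and 15 lower in NG14. NG14 had more Nnat, neuronatin (5.39 ± 0.673 against 0.293 ± 0.157, 2.31), more Gal (4.58 ± 3.76 against 0.157 ± 0.137, 1.99) and more Nrp2, a semaphorin co-receptor (3.39 ± 0.348 against 0.169 ± 0.0761, 1.91). It had less Ifi27l2a (-2.12), less Trpa1 (0.0643 ± 0.0102 against 3.54 ± 0.595, -2.08) and less Dcdc2a (-1.96).

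Against NG8, 62 of 8714 genes were called (0.711%), 34 higher and 28 lower. Fstl1, a secreted follistatin-like protein, was at 27.2, 23.5, 29.7 and 31.3 in NG14 and 2.91, 1.92, 1.80 and 3.48 in NG8 (3.06, SE 0.09), followed by Itm2a (3.62 ± 0.811 against 0.0223 ± 0.00869, 2.16) and Fxyd2, another regulator of the sodium pump (7.35 ± 1.62 against 0.880 ± 0.377, 2.15). NG8 had more Gda, guanine deaminase (6.04 ± 1.47 against 0.131 ± 0.0187, -2.61), more Ntng1 (-2.30) and more Cntn1 (-1.82).

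NG7, the other type rich in Gal, had at least 10 cells in 3 libraries, all but unsorted 1. Against it 52 of 8713 genes were called (0.597%), 33 higher and 19 lower. Fstl1 again had the largest difference (2.79, against 3.30 ± 1.19 in NG7, SD, n = 3 libraries), with Fxyd2 (2.19) and S100a6, a calcium-binding protein (4.94 ± 1.06 against 0.542 ± 0.160, 2.03). Lower in NG14 were Tac1 (0.119 ± 0.0453 against 5.83 ± 3.42, -2.44), the transcription factor gene Mef2c (0.161 ± 0.0759 against 5.28 ± 2.21, -2.34) and the protocadherin gene Pcdh9 (0.900 ± 0.156 against 6.97 ± 0.122, -2.04). In all 3 libraries NG7, with 1.90 to 8.02 per 10000, was above the NG14 range of Tac1. For the genes above, the NG14 means are over 4 libraries and the NG7 means over 3. Adcyap1 was at 0.782 ± 0.754 in NG7 over all 4 libraries, including the 7 cells of unsorted 1. Its highest value in NG7, 1.84, was below the lowest of NG14.

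The next question was how NG14 neurons differed between sorted Vglut2Cre-Tomato and unsorted wild-type libraries. These groups come from the labels. Whether the clustering took the library into account is not given in the sources used here. Of 8765 genes tested, 52 were called (0.593%), 30 higher and 22 lower in the sorted libraries. The same comparison in the other nodose neurons called 38 of 8864 genes, 15 higher and 23 lower. Slc17a6, whose locus drives Cre, was not called (2.92 and 3.37 against 2.53 and 2.52; -0.23, SE 0.12, adjusted p = 0.174 by limma). Pfn1, the actin-binding protein profilin 1, rose most, from 0.402 and 0.204 to 6.27 and 4.85 per 10000 (2.33, SE 0.12, adjusted p = 1.11e-08 by limma). Gal followed, from 1.20 and 1.61 to 8.76 and 6.75 (1.86, SE 0.14, adjusted p = 9.84e-07 by limma). Cartpt went from 0.920 and 1.33 to 11.2 and 2.56 (1.64, SE 0.34, adjusted p = 0.00357 by limma), a size that rested on sorted 1: without it the difference was 0.75. Ubb, a ubiquitin gene (1.60), and the tubulin gene Tubb2a (2.39 and 2.77 to 9.56 and 9.52, 1.56) completed the 5 largest rises. Of these 5, Pfn1 (2.16), Ubb (1.32) and Tubb2a (1.07) were also called higher in the other nodose neurons. Gal (0.48) and Cartpt (0.49) were not called there. Adcyap1 stayed under the fold of a call (2.63 and 2.18 to 3.76 and 3.81; 0.49, SE 0.12, adjusted p = 0.0107 by limma).

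The largest fall was in Apoe, apolipoprotein E, a marker of satellite glia, the cells that wrap each neuron: it was at 23.6 and 25.8 in the unsorted and 0.350 and 0.186 in the sorted libraries (-4.34, SE 0.14, adjusted p = 9.98e-12 by limma). Fabp7 (-1.98) and Dbi (-1.002) were called too. Of 5 tested glial markers 4 were called lower, and all 5 were lower at an adjusted p under 0.05 by limma when the fold was disregarded. The sum of the 6 glial markers, 30.7 and 36.3 against 1.66 and 1.36, moved with the sort, and its part in the other differences was not tested. Vps8, a subunit of an endosomal tethering complex, fell by 2.05 from 1.72 and 14.3 to 0.456 and 0.664, and without unsorted 2 the difference was -0.81. Basp1, a membrane protein of growing axons, was at 8.70 and 11.2 against 2.63 and 3.17 (-1.48). Of 97 transcripts of ribosomal proteins, 13 were called, all lower, beside 0.593% called of all genes tested. A difference below 0 was found in 89 of the 97, and their median was -0.58 against -0.00088 for all genes tested. Rps12 had the largest of these falls (12.9 and 12.05 against 3.61 and 4.48, -1.42). The 5 largest falls of all were also called lower in the other nodose neurons: Apoe (-2.96), Vps8 (-1.87), Fabp7 (-1.41), Basp1 (-1.25) and Rps12 (-1.23). Of 13 mitochondrial transcripts 2 were called, both lower, and 8 had a difference below 0 (median -0.24). Of 9 tubulin genes 3 were called, all higher, and 1 had a difference below 0 (median 0.51).

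Peptide genes included 3 that rose in the sorted libraries, where 0.593% of all genes were called. Of 15 tested, 3 were called higher (Gal, Cartpt and Scg2, the secretogranin II gene, which went from 3.17 and 3.46 to 8.31 and 7.06; 1.01) and 0 lower, 10 were higher and 0 lower at any fold against 20.5% of all genes in either direction, and the median was 0.40. Cckar was the one called receptor: it fell from 5.31 and 5.25 to 1.68 and 2.66 in NG14 neurons (-1.004). In the other nodose neurons it was called lower too (-1.26). Calm3 (1.53) and Hspb1, a small heat-shock protein (1.22), were the only other called members of the 24 functional lists, and the channel and transcription factor lists had 0 called.

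Gal was 1 of 2 genes whose sort difference in NG14 was called apart from that in the other nodose neurons. The test of that difference covered 8762 genes, of which 2 were called (0.0228%) and 67 passed the adjusted p of 0.05 regardless of fold. Gal rose by 1.86 in NG14 and by 0.48 in the others (difference 1.38, SE 0.13, adjusted p = 0.000108 by limma). Apoe fell by 4.34 in NG14 and by 2.96 in the others (difference -1.38, SE 0.17, adjusted p = 0.00107 by limma). Neither call held when low genes were kept in (adjusted p = 0.468 for Gal and 0.478 for Apoe), and with limma-voom on summed UMIs the Gal difference was 0.83 and not called. Without unsorted 2 the Apoe call was lost as well (-1.21, adjusted p = 0.0649). Over 10 alternatives the difference ran from 0.83 to 1.585 for Gal (limma adjusted p from 2.07e-08 to 0.468) and from -3.12 to -1.02 for Apoe (2.62e-09 to 0.478). The comparison is on the log2(value + 1) scale, on which low levels move little: Gal in NG11 went from 0.484 and 0.599 to 2.36 and 2.72, a rise in the same direction as in NG14, while NG8 stayed between 0.215 and 0.305. For Adcyap1 the difference between the sort effects was 0.19 (SE 0.07, adjusted p = 0.304 by limma).

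**Figure D4:**
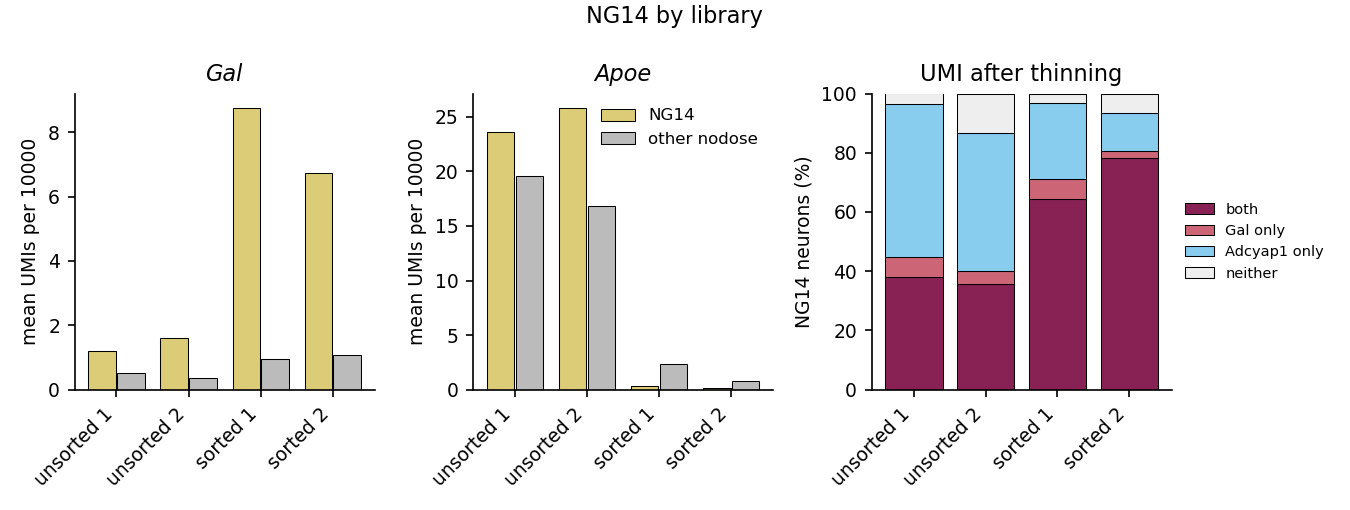
Gal and Apoe in NG14 (yellow) and other nodose neurons (grey) by library, in mean UMIs per 10000, and the share of NG14 neurons with a UMI of Gal, Adcyap1, both or neither after thinning to 10000 UMIs. Gal was at 8.76 and 6.75 in sorted NG14 neurons and at most 1.61 elsewhere, Apoe was high in the unsorted libraries alone, and the share with Gal was 71.0% and 80.4% in the sorted libraries.

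**Figure D5:**
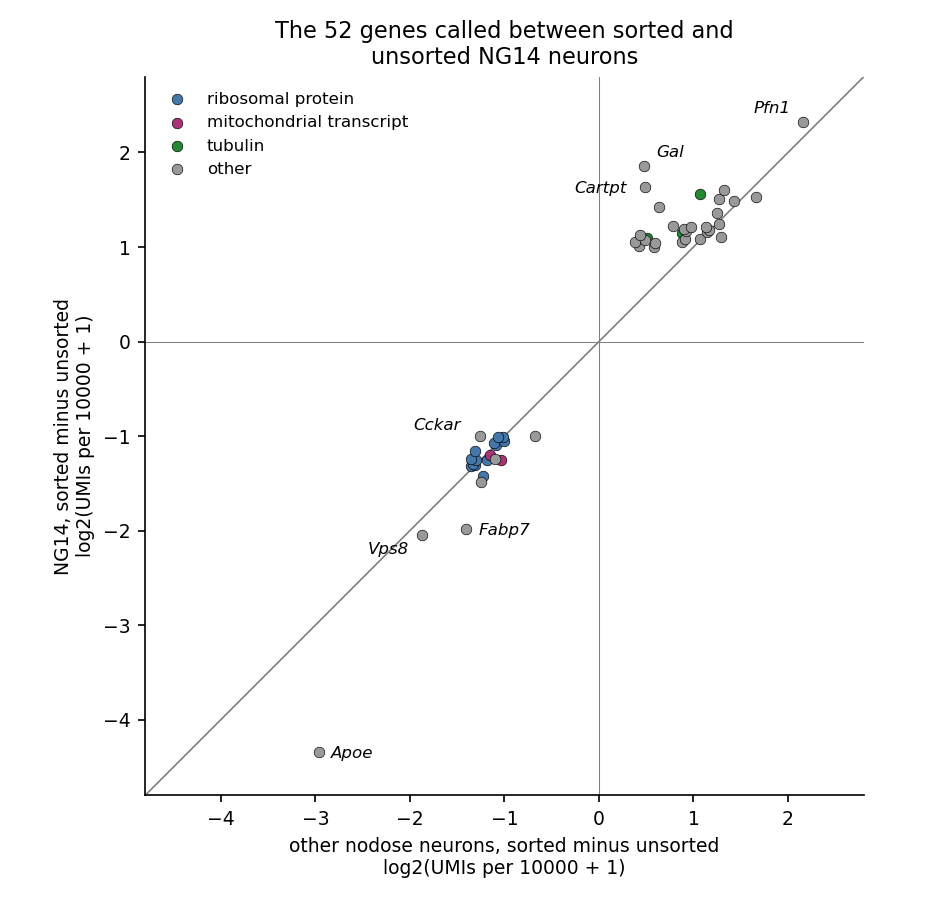
Sorted minus unsorted difference of the 52 called genes in other nodose neurons (x axis) and NG14 (y axis), on the log2(UMIs per 10000 + 1) scale, coloured by gene family; the line marks equal differences. Both axes come from the same 4 libraries; Gal (0.48 and 1.86) lies above the line and Apoe (-2.96 and -4.34) below it.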

How the data were processed

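Single-cell RNA of mouse vagal ganglia was measured in 4 libraries. Ganglia were digested with enzymes and libraries prepared by 10x Genomics 3' chemistry, per the labels' protocols. The submitters' processing notes name the mm10 build, Seurat and Cell Ranger 2.1.1. How cells were filtered, cleared of doublets and clustered is not given in the sources used here. Values were deposited by the authors as natural log values, ln(1 + UMIs per 10000), for 17289 genes, and an annotation with the cluster, library and UMI count of each cell and its mitochondrial share as a fraction. Undoing the log gave whole UMI counts for 100% of non-zero values (tolerance 0.01). The series text states 1896 cells; 1825 were analysed. Libraries shared 1 cell barcode. All cells were kept and doublets were not called; as an alternative the top 5% of cells by UMI total were dropped.

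For the tests and the correlation, linear values were averaged per library and type in profiles of 10 or more cells. The means and ranks of the 18 types over the 4 libraries used every cell, without this minimum. NG5, NG6 and NG10 had as few as 2 cells in a library. A gene was tested if its level exceeded 0.1 per 10000 in as many profiles as there were libraries (2 for sorted against unsorted). The test was done with limma 3.58.1 (R 4.3.3), with a mean-variance trend, on log2(mean + 1), with Benjamini-Hochberg adjustment over all genes of a fit. The library was a block between types of the same libraries and in the test of the difference between sort effects; sorted against unsorted NG14 had no block. Genes were called at an adjusted p below 0.05 with a log2 difference of 1 or more in size. Tables were made with Python 3.11.15 and pandas 2.3.3, and the fits were tested on simulated data. Alternatives were a pseudocount of 0.1, no filter, limma-voom on UMIs read back, median centring, thinning, other weights, no block, and leaving out libraries.

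Named genes were Gal and Adcyap1, the 10 largest differences in each direction, up to 3 called members of each of 24 gene lists or else the member with the highest NG14 level, the 3 largest against each alike type, and the 5 largest between sorts with Slc17a6. Other genes were picked after their values were seen. A few genes the rule named are not reported here. Members and lists were chosen with earlier results of these data known.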

Additional observations from a re-analysis of the deposited data

Results flagged for a closer look

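For 17 of the genes named or listed here, the sorted minus unsorted difference in NG14 neurons was not the same as that in the other nodose neurons (limma test of the difference between the 2 differences, adjusted p under 0.05 over 8762 genes). In the order difference in NG14 minus difference in the others, on the log2(UMIs per 10000 + 1) scale, peptide genes gave 1.38 for Gal, 0.72 for Grp and 0.58 for Scg2, and -0.61 for Tac1 and -0.79 for Calca. Grp is the gastrin-releasing peptide and Calca the precursor of calcitonin gene-related peptide. Receptor and channel genes gave 0.65 for P2ry1 and 0.20 for Gabra2, and -0.59 for Tmc3, -0.46 for Scn7a and -0.20 for Kcns1. The calcium-binding genes S100a10 and S100a11 gave 0.58 and 0.68, Hspb1 0.44, Tubb2a 0.49, Gpx3 0.69 and Dcdc2a 0.69. Apoe, the satellite glia marker, gave -1.38. All of these compare the same 4 libraries, and what sets them apart was not tested.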

How the results depend on the processing

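Of 922 values of named genes under alternatives, 873 kept their direction and their side of the threshold, 35 lost and 6 gained the call, and 8 reversed. Counts of called genes rose under a pseudocount of 0.1 and limma-voom, which weigh low genes more: to 319 and 582 for NG14 against other nodose neurons, 268 and 629 for sorted against unsorted NG14, 14 and 57 for the difference between sort effects, 364 and 606 against NG16, 488 and 728 against NG8, and 478 and 724 against NG7. With limma-voom the split was 344 higher and 380 lower against NG7, and 8 higher and 49 lower for the difference between sort effects. Without the low filter the latter had 0 calls by limma, with 1507 genes at an unadjusted p under 0.05. Leaving out 1 library gave 28 to 34, 41 to 65 and 1 to 3 calls for the first 3 comparisons (1 without unsorted 2), and 32 to 41, 60 to 66 and 48 to 63 against NG16, NG8 and NG7. With no replicate block the counts were 33 against other nodose neurons and 33, 62 and 44 against these types, and Gal lost its call (1.42, adjusted p = 0.0669 by limma; over 14 alternatives 0.73 to 3.01, adjusted p 1.06e-08 to 0.0669). With all sensory neurons as the denominator the NG14 share was 14.2% in unsorted 2 and 15.2% over all libraries. Slc17a6 reversed in the sorted libraries alone (-0.0159). F2r, at -0.01, reversed with median centring (0.0052), without the highest UMI totals (0.0107), after thinning (0.0395), with 1 library left out (-0.0255 to 0.0132; 0.0105 without sorted 1), in the unsorted libraries alone (0.0488) and with types weighted equally (0.2752). With types weighted equally Ly6h (0.85), C1ql2 (0.999), Ifi27l2a (-0.93) and Trpa1 (-0.66) lost their calls. In the unsorted libraries alone Gal (0.73), Gpx3 (0.83), Stmn1 (0.97), Rab3b (0.95), Cd9 (-0.997), Ntng1 (-0.88), Scn7a (-0.82) and Tac1 (-0.71) did, among the genes reported, and in the sorted ones alone Parm1 (-0.9997). Beyond the alternatives' own construction the cause was not tested. NG7 had no profile in unsorted 1, so leaving that library out gave no value. Between 29 and 122 NG14 cells per library limit the precision of low genes.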
